A study of Mus musculus with 2 samples.

Results

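The mouse major histocompatibility complex (MHC) genes and the genes that supply their peptides were compared between a segment of the aorta that is prone to atherosclerosis and one that resists it. The members were taken by gene name: every gene named H2-, the transporter genes Tap1 and Tap2, Tapbp and its relative, the immunoproteasome genes Psmb8, Psmb9 and Psmb10, the proteasome activator genes Psme1 and Psme2, B2m, Cd74 and the class II transactivator (C2ta in the files, now Ciita). The rule found 48 genes on 67 distinct array features (85 spots), out of 28650 genes on 41161 features (41534 spots). No spot carried the name Psme2, and Cd74 is spotted under its older name Ii, so it falls outside the rule and is given separately below. Of the 48 members, 40 genes (56 features) could be compared, which means that a feature was well above background in at least 1 of the RNAs on both arrays; all 40 were so in both RNAs, and none was saturated. The 8 others were the class II gene H2-Ea and the class Ib genes H2-M9, H2-M10.1, H2-M10.4, H2-M10.5, H2-M10.6, H2-M11 and H2-T3.

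All RNA came from 16-week-old apoE-/- mice, in which loss of apolipoprotein E leads to atherosclerosis. The prone segment, called arch here, ran from the aortic root through the arch to 2 mm into the thoracic aorta, and the resistant segment, called thoracic here, was the following 6 mm. The vessel had been perfused with triton X-100, a detergent, to strip the endothelium. Extracts of 6 mice (3 males and 3 females) were pooled per segment, and the same 2 pools were hybridised on 2 two-colour Agilent arrays with the dyes exchanged: the arch was in Cy3 (green) on array 1 and in Cy5 (red) on array 2. The arrays repeat 1 measurement, so every ± below is the SD between 2 arrays of the same RNA, the spread between mice is unknown, and no test could be made. Values are log2 ratios of arch over thoracic unless a signal is named, and a signal is the scanner's mean spot intensity in arbitrary units. In whole tissue, fewer cells of a type and less RNA per cell cannot be told apart.

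MHC class I molecules are made of a heavy chain and the light chain beta-2 microglobulin (B2m), sit on nearly all nucleated cells and present peptides from inside the cell to CD8 T cells. The peptides are cut by the proteasome, whose catalytic subunits are exchanged for Psmb8, Psmb9 and Psmb10 under interferon, then pumped into the endoplasmic reticulum by the Tap1-Tap2 transporter and loaded with the help of tapasin (Tapbp). MHC class II molecules are made mainly by macrophages, dendritic cells and B cells. They travel with the invariant chain (Cd74), exchange its fragment for a peptide with the help of H2-DM, and are switched on by Ciita.

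Class I and class II promoters share a conserved element, the Y box, and several class I genes carry an interferon-stimulated response element (ISRE). The promoter windows of RefSeq (build GRCm38.p6, 250 bases before to 50 after a transcription start) covered 35 of the 48 member symbols with 39 windows. Both strands were searched for the letters CTGATTGG (Y box), for the shorter ATTGG that lies inside it, and for GAAA, any 2 bases, GAAA (the core of the ISRE). The Y box was found in 14 of 21 windows of class I heavy chains (66.7%) and in 3 of 8 windows of class II presentation genes (37.5%), beside 4.1% of all 32851 windows. Of those 14 class I windows, 9 belong to M region genes (H2-M1, H2-M9, H2-M10.1, H2-M10.3, H2-M10.4, H2-M10.5, H2-M10.6 and H2-M11) that were near 0 or not compared, and the rest to H2-D1, H2-K1, H2-Q7 and H2-T23. ATTGG was found in 79.5% of member windows and in 37.4% of all windows. It was in 90.5% of class I heavy chain windows and in 87.5% of class II presentation windows. The gap between the classes was thus seen with the longer letters only. The exact letters of the ISRE core were found in 4 of 39 member windows (10.3%), those of B2m, H2-T22, H2-T23 and Psme1, and in 3.44% of all windows. The 5 windows below show these letters, in capitals on the gene's strand as they stand or as their reverse complement, in class I genes that were higher in the arch (H2-D1, H2-T23 and B2m), in a class I gene that was lower there (H2-T22) and in a class II chain (H2-Aa).
H2-D1 (chr17:35262844-35263143, + strand): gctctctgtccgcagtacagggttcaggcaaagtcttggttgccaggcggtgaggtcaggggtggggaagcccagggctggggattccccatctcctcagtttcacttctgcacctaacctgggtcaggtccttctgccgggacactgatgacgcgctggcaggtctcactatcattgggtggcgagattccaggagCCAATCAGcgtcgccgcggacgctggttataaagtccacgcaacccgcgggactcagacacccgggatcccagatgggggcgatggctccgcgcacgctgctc
H2-T23 (chr17:36032652-36032951, - strand): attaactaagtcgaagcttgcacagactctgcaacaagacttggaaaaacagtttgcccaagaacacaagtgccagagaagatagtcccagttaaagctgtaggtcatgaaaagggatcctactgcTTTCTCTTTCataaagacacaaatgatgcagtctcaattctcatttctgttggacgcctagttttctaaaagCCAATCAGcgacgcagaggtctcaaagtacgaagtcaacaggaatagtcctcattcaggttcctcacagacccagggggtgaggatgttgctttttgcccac
B2m (chr2:122147437-122147736, + strand): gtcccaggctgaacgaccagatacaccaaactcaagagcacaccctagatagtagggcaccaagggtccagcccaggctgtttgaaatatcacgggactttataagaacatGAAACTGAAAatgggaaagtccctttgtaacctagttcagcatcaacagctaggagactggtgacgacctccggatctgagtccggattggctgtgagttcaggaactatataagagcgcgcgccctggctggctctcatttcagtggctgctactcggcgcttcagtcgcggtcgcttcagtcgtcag
H2-T22 (chr17:36042693-36042992, - strand): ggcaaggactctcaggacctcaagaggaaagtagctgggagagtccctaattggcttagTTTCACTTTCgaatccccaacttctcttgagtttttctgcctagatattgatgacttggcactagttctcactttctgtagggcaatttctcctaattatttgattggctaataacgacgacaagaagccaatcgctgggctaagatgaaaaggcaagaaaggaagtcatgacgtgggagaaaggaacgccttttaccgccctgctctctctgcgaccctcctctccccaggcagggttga
H2-Aa (chr17:34287774-34288073, - strand): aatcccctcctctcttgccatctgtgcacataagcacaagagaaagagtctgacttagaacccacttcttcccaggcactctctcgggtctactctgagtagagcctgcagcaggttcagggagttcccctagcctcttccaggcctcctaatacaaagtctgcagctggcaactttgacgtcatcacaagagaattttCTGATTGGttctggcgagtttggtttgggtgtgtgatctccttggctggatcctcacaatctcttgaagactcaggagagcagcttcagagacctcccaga
The Y box begins 53 bases before the start site in H2-D1, 52 in H2-T23 and 51 in H2-Aa. Its place differed in other class I and class II windows. It begins 16 bases before the start in H2-Q7, and 6 before or 8 after it in the windows of H2-K1. In the class II genes H2-Eb1 and H2-Oa it begins 62 and 46 bases before the start. The ISRE core begins 124 bases before the start in H2-T23, 139 in B2m and 191 in H2-T22. A match describes the letters of the window and shows no binding. A window without a match is not shown to lack the element, since only exact letters were counted. The windows of H2-D1, H2-K1, H2-Q7, H2-Q10 and H2-M3 hold tttcacttct, a near match to the reverse complement of the ISRE core, which was not counted. Of these genes, H2-M3 was lower in the arch on both arrays.

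The class I heavy chains and B2m were mostly slightly higher in the arch, while the class II members had means from -0.27 to 0.099. Cd74, a class II gene outside the naming rule, was at 0.34. Differences were counted by size, since no test was possible. By the 2-fold rule (a mean ratio of 2-fold or more, and each array past 1.5-fold in that direction), 0 members were higher in the arch and 0 in the thoracic segment, beside 0.473% and 0.145% of the 22812 genes compared. By the 1.2-fold rule (a mean of at least 1.2-fold, with the same sign on each array), 10 of 40 members (25%) were higher in the arch, beside 6.44% of all genes, and 1 of 40 (2.5%) in the thoracic segment, beside 3.81% of all genes. Above 0 on both arrays were 21 members (52.5%), beside 32.4% of all genes; below 0 on both were 12 members (30%), beside 35.2%. The members' median was 0.10, with a range from -0.27 to 0.36, and the median of all genes was -0.0069. The members repeated between arrays about as all genes did, with a median SD of 0.052 beside 0.055.

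**Figure D1:**
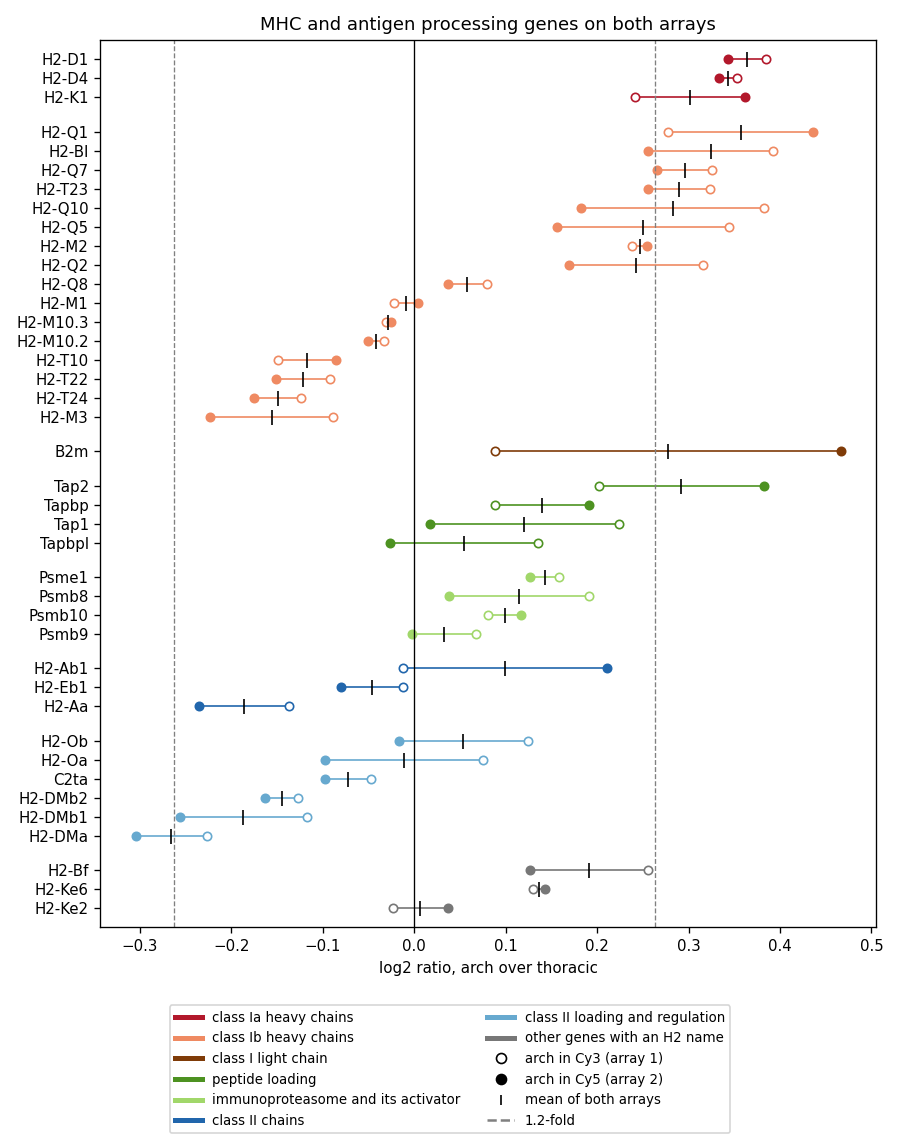
Log2 ratio of arch over thoracic for the 40 compared members, grouped by role; open circles are array 1, filled circles array 2, ticks their mean, and dashed lines mark 1.2-fold. The class Ia chains, the 6 Q genes and B2m lie right of 0 on both arrays, the class II genes lie near or left of 0, and B2m has the widest gap between arrays (SD 0.27).

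Class I presentation (heavy chains and B2m, 20 of 27 genes compared) had a median of 0.25. By the 1.2-fold rule, 9 were higher in the arch (45%, beside 6.44% of all genes), 0 in the thoracic segment (beside 3.81%) and 11 neither. Peptide supply (loading genes and immunoproteasome, 8 of 8 genes) had a median of 0.12, with 1 gene past the rule, in the arch. Class II presentation (chains, loading and regulation, 9 of 10 genes) had a median of -0.073, with 0 in the arch and 1, H2-DMa, in the thoracic segment. Cd74, left out of these counts by its name, was past the 1.2-fold rule in the arch (0.34). With features at background added, the class I median was 0.040, under that of peptide supply. Just inside the 1.2-fold limit of 0.263 were B2m (0.28) and H2-DMa (-0.27), and just outside were H2-Q5 (0.25) and H2-M2 (0.25).

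**Figure D2:**
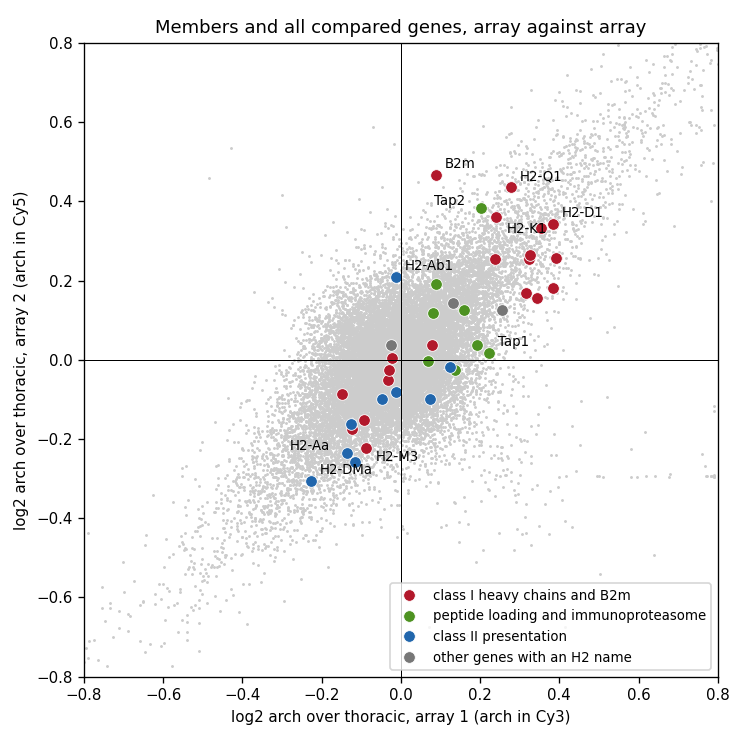
Log2 ratio of arch over thoracic on array 1 (horizontal) against array 2 (vertical) for the members, in colour, and all compared genes within the axes, in grey. Of the 20 class I points, 13 lie above 0 on both arrays, with H2-D1 at 0.38 and 0.34, and 6 lie below 0 on both, among them H2-M3; of the 9 class II points, 6 lie below 0 on both arrays, down to H2-DMa at -0.23 and -0.30.

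The class Ia group held the classical heavy chains H2-D1 and H2-K1, which present peptides to CD8 T cells, and the pseudogene H2-D4. These were the members furthest above 0 as a group: 3 of 3 passed the 1.2-fold rule in the arch. Their median of 0.34 was the value of H2-D4. H2-D1 gave arch signals of 3234 in Cy3 and 4238 in Cy5 and thoracic signals of 3425 in Cy5 and 2633 in Cy3. Its log2 ratio was 0.38 on array 1 and 0.34 on array 2, a mean of 0.36 ± 0.030, or 1.29-fold. The arch was thus the higher pool in both dye orders once each array's brightness trend was removed, although its raw signal was the lower one on array 1. H2-K1, among the brightest members, had arch signals of 15867 and 24029.6 and thoracic signals of 21112 and 14989, on arrays 1 and 2. Its log2 ratio was 0.24 and 0.36, a mean of 0.30 ± 0.085 (1.23-fold). The feature named H2-D4, which RefSeq lists as a transcribed pseudogene, read 0.35 and 0.33, a mean of 0.34 ± 0.014. RefSeq lists H2-Bl, H2-Q5 and H2-T10 of the class Ib group as transcribed pseudogenes too. Many class I genes, above all those of the K, D and Q regions, are close copies of each other. Feature sequences were not available, so which copy such a feature bound is uncertain. Counts of these genes, the Q genes below among them, may therefore not be counts of separate genes.

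B2m, the light chain shared by class I molecules, passed the same rule, but its brightest feature differed between arrays. That feature read 0.089 on array 1 and 0.47 on array 2, a mean of 0.28 ± 0.27, the largest SD of any member. The second B2m feature read 0.24 and 0.28, a mean of 0.26 ± 0.029, just under the 1.2-fold limit. Both features were above 0 on both arrays.

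The class I count rested on the removal of each array's brightness trend (loess normalization). Without loess, 2 class I genes of the 9 (H2-D4 and H2-Bl, both listed as pseudogenes) passed the 1.2-fold rule, and the class I median was 0.13 in place of 0.25. The rule asks for the same sign on each array, and without loess the dye difference stays in each array: 7 of the 10 members counted in the arch then read below 0 on array 1 and above 0 on array 2. H2-D1, for example, read -0.014 and 0.57 (mean 0.28), H2-K1 -0.34 and 0.56 (mean 0.11) and B2m -0.50 and 0.66 (mean 0.080). By the mean alone, which cancels a dye difference that is alike on both arrays, 5 members stayed at 1.2-fold or more without loess (H2-D1, H2-D4, H2-Q1, H2-Bl and Tap2), and all 10 stayed above 0. In the brightest of 20 equal bins of all genes, the median log2 ratio was 0.0070 with loess and -0.14 without it.

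**Figure D3:**
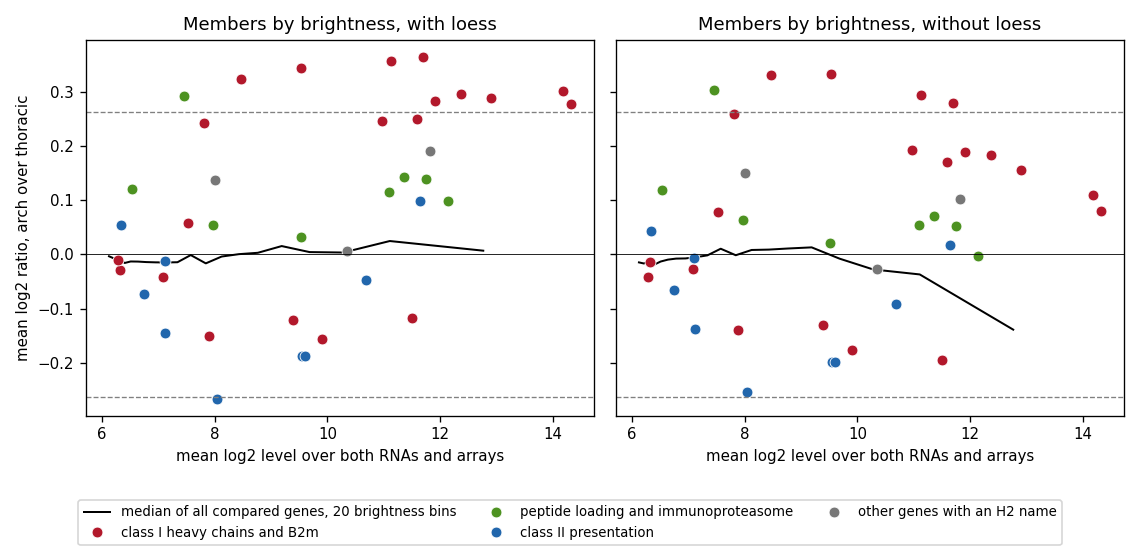
Mean log2 ratio of arch over thoracic against mean log2 level for the 40 compared members, with loess (left) and without (right); the black line is the median of all compared genes in 20 bins of brightness and dashed lines mark 1.2-fold. Without loess the line falls to -0.14 at the bright end, and H2-K1 and B2m, the brightest members, come down to 0.11 and 0.080.

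The class Ib heavy chains, the less polymorphic relatives of the classical chains, went both ways. Of 16 compared, 5 were higher in the arch and 0 in the thoracic segment, beside 6.44% and 3.81% of all genes. Their median was 0.15, which was -0.020 with features at background added. The Q genes were above 0 on both arrays in 6 of 6, beside 32.4% of all genes, with a median of 0.27. H2-Q1 read 0.28 and 0.44, a mean of 0.36 ± 0.11, and its other features read 0.19 and 0.24. H2-Q7, which encodes the Qa-2 antigen, read 0.33 and 0.27, a mean of 0.30 ± 0.043. H2-Q5 (0.25 ± 0.13) and H2-Q2 (0.24 ± 0.10) stayed just under the limit, and H2-Q8 was at 0.058 ± 0.030. H2-Q10, known for a secreted class I chain of liver, was the one member whose features differed by 1.2-fold or more: its brightest feature gave 0.28 ± 0.14, and the others 0.34, 0.071, 0.020 and -0.086. With the median over its features, H2-Q10 came to 0.090 and did not pass the rule.

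The T genes parted in direction. H2-T23, which encodes Qa-1, a ligand of natural killer cell receptors, read 0.32 and 0.26, a mean of 0.29 ± 0.049. Lower in the arch on both arrays were H2-T10 (-0.12 ± 0.045) and H2-T22 (-0.12 ± 0.042), whose products are seen by gamma delta T cells, and H2-T24 (-0.15 ± 0.036), none past the 1.2-fold rule. The second features of H2-T22 and H2-T24 read -0.047 and 0.039. The 3 T genes below 0 stayed below 0 in the mean in all 11 alternative settings of the processing, and H2-T23 stayed above 0, at 0.16 or more. On single arrays without loess, H2-T10 read -0.54 and 0.15, H2-T22 -0.33 and 0.075, and H2-T23 -0.16 and 0.47. These genes thus changed sign between arrays there, while H2-T24 did not.

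Of the 11 genes in the M region, 5 were compared. H2-M2 read 0.24 and 0.26, a mean of 0.25 ± 0.012, and H2-M3, which presents N-formylated peptides, read -0.089 and -0.22, a mean of -0.16 ± 0.095, though its second feature was at 0.063. H2-M1 (-0.0095), H2-M10.2 (-0.042) and H2-M10.3 (-0.028) were close to 0. H2-Bl was at 0.32 ± 0.097, on the only one of its 3 features that was well above background. The H2-Q7 and H2-M2 features were each spotted 10 times per array, which shows the spot error directly. The 10 spots of H2-Q7 ran from 0.30 to 0.36 on array 1 and from 0.22 to 0.30 on array 2, and those of H2-M2 from 0.20 to 0.27 and from 0.22 to 0.29. Every one of these 40 readings was above 0, and the SD over spots was at most 0.024, so readings on 1 array repeated from spot to spot after loess. Without loess the array 1 means were -0.12 for H2-Q7 and -0.11 for H2-M2, and the array 2 means 0.49 for both.

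**Figure D4:**
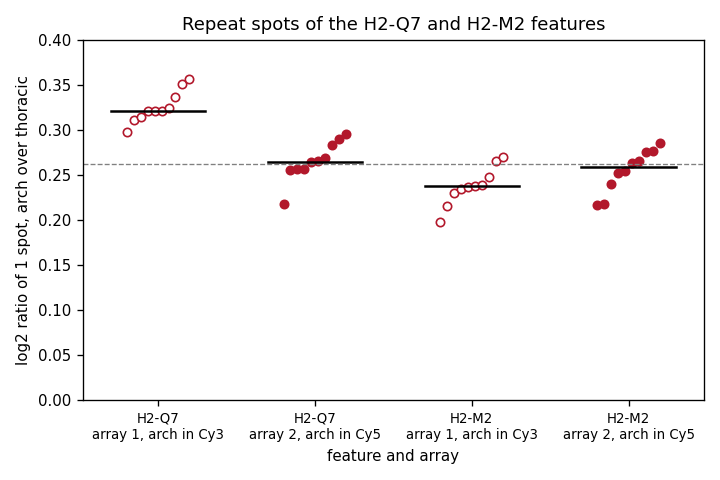
Log2 ratio of arch over thoracic for each of the 10 spots of the H2-Q7 and H2-M2 features on array 1 (open) and array 2 (filled), with the median of each set as a bar and 1.2-fold as a dashed line. All spots lie above 0, with medians of 0.32 and 0.26 for H2-Q7 and 0.24 and 0.26 for H2-M2.

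The peptide loading genes were above 0 in the mean, and 1 of 4 passed the 1.2-fold rule in the arch (median 0.13). Tap2, one chain of the peptide transporter, read 0.20 and 0.38, a mean of 0.29 ± 0.13 (1.22-fold), at signals of only 181 to 242. Tap2 did not pass when no background was subtracted (0.25) or on array 1 alone (0.20). Its partner Tap1 was dimmer, with signals of 107 to 130, and read 0.22 and 0.017, a mean of 0.12 ± 0.15. Tapbp, the bridge between transporter and heavy chain, read 0.088 and 0.19, a mean of 0.14 ± 0.073, and Tapbpl, its relative, 0.14 and -0.026, a mean of 0.055 ± 0.11.

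The interferon-inducible proteasome genes were slightly above 0, and 0 of 4 passed either rule. Psme1, an activator subunit, was at 0.14 ± 0.022, Psmb8 at 0.11 ± 0.11, Psmb10 at 0.099 ± 0.026 and Psmb9 at 0.032 ± 0.050, a median of 0.11. Other proteasome genes, set beside them, leaned the other way. Of 16 compared, 0 passed either rule, with a median of -0.12. On both arrays, 11 were below 0 and 3 above, beside 35.2% and 32.4% of all genes. The Psma genes and Psmb1 to Psmb4 in this list belong to both forms of the proteasome, and Psme3 and Psme4 are other activators. The subunits that the immunoproteasome replaces were each below 0 in the mean, Psmb5 at -0.10 ± 0.098, Psmb6 at -0.12 ± 0.20 (above 0 on array 1, at 0.022) and Psmb7 at -0.15 ± 0.036. The furthest below 0 were Psma5 (-0.26 ± 0.058) and Psma2 (-0.25 ± 0.039), and the furthest above was Psme3 (0.22 ± 0.11). The order of the medians held without loess, at 0.038 and -0.20, although Psmb10 then read -0.0019.

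**Figure D5:**
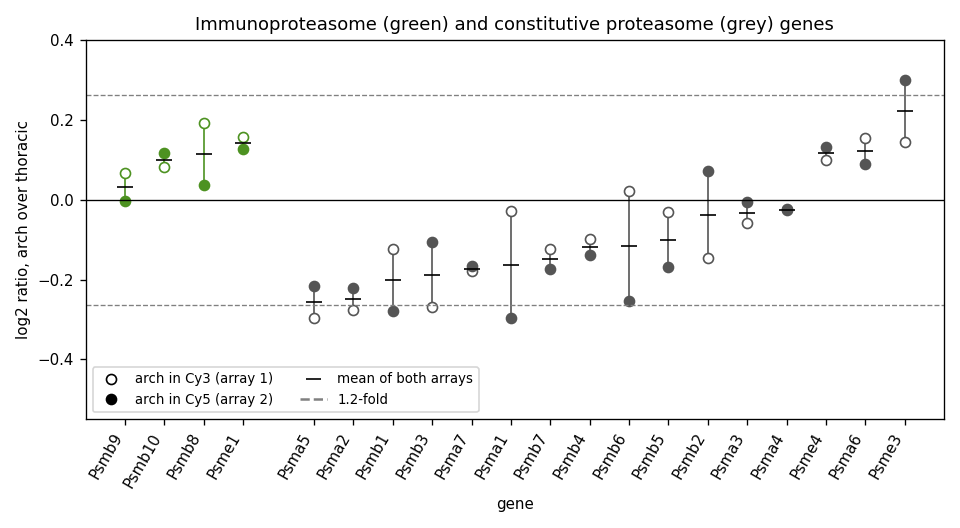
Log2 ratio of arch over thoracic for 4 immunoproteasome genes (green) and 16 other proteasome genes (grey, titled constitutive) on array 1 (open) and array 2 (filled), with the mean as a bar and 1.2-fold as dashed lines. Of the grey genes, Psmb5, Psmb6 and Psmb7 are those that the immunoproteasome replaces. The green means lie between 0.032 and 0.14, and 13 of the 16 grey means lie below 0.

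The class II chains did not follow class I: of 3 compared, 0 passed the 1.2-fold rule, and their median was -0.046. H2-Aa, the alpha chain of I-A, gave arch signals of 699 and 826 and thoracic signals of 941 and 778. It read -0.14 and -0.24, a mean of -0.19 ± 0.070, and its second feature -0.16. Its partner H2-Ab1, the beta chain of the same molecule, read -0.0125 and 0.21, a mean of 0.099 ± 0.16, and its other feature 0.025; 2 further features, spotted under the name Rmcs1 and assigned to H2-Ab1 by RefSeq, were at 0.0029 and 0.084. The paired chains thus lay on either side of 0, with H2-Ab1 within its spread between arrays. H2-Eb1, the beta chain of I-E, read -0.012 and -0.080, a mean of -0.046 ± 0.048.

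The lowest of all members was a class II loading gene. H2-DMa, the alpha chain of the H2-DM peptide exchanger, gave arch signals of 256 and 292 and thoracic signals of 327 and 310. It read -0.23 and -0.30, a mean of -0.27 ± 0.055, just over 1.2-fold higher in the thoracic segment, and was the one member past the 1.2-fold rule in that direction. That call was lost without loess (-0.25), without background subtraction (-0.25) and on array 1 alone (-0.23). Its partner chain H2-DMb1 read -0.12 and -0.26, a mean of -0.19 ± 0.099, and H2-DMb2 was at -0.14 ± 0.026, with a second feature at -0.015. C2ta, the class II transactivator, was at -0.073 ± 0.036, near the background at signals of 131 to 145. The genes of H2-DO, the inhibitor of H2-DM, were at -0.012 ± 0.12 (H2-Oa) and 0.054 ± 0.10 (H2-Ob). All 6 were near or below 0, and only H2-Oa and H2-Ob changed sign between arrays.

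Cd74, the invariant chain, lay above the other class II genes, which had no single direction. Its feature gave arch signals of 3652 and 4734 and thoracic signals of 4143 and 2872. It read 0.30 and 0.38, a mean of 0.34 ± 0.054, which lies beyond the values of all 9 class II members compared, whose highest was H2-Ab1 at 0.099. Without loess Cd74 stood at 0.25, under the 1.2-fold limit. The difference between Cd74 and the chains it escorts was not tested.

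A few genes carry an H2 name for their place beside the MHC and have other work. H2-Bf, complement factor B (now Cfb), read 0.26 and 0.13, a mean of 0.19 ± 0.091. H2-Ke6, a steroid dehydrogenase relative, was at 0.14 ± 0.0088, and H2-Ke2, a prefoldin subunit (now Pfdn6), at 0.0064 ± 0.043. None of the 3 passed the 1.2-fold rule.

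Of 34 other genes of antigen presentation and its control, 5 were higher in the arch by the 1.2-fold rule and 0 in the thoracic segment. The shares of all genes were 6.44% and 3.81%. The median of the list was 0.049. Ctss, the protease that trims the invariant chain, had the largest difference, 1.24 and 1.12 on the arrays, a mean of 1.18 ± 0.085 (2.27-fold), and was the 1 gene of the list past the 2-fold rule; without loess it stood at 0.9993, just under. The other lysosomal proteases of the class II route were also higher, Ctsl at 0.59 ± 0.12 and Lgmn at 0.53 ± 0.045. Of the interferon pathway, Stat2 (0.41 ± 0.0061) and Irf8 (0.36 ± 0.0084) passed, the latter not with the median over its features (0.19), while Ifnar1 (0.26 ± 0.078) fell short of the limit. The lowest of the list were Cd86, a costimulatory molecule (-0.13 ± 0.018), Fcgrt, the neonatal Fc receptor heavy chain (-0.13 ± 0.0023), Socs1, a brake on interferon signalling (-0.095 ± 0.0090), and Nfya (-0.087 ± 0.0077), whose product binds the Y box. With the median over its features, Nfya read 0.011. Next lowest were Irf1, also of the interferon pathway (-0.071 ± 0.015), and Nfyb (-0.067 ± 0.015), each below 0 on both arrays. The interferon genes of the list thus lay on both sides of 0.

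Markers of cells that carry these molecules were read on the same scale. By the 1.2-fold rule used for them, 6.44% of all genes were higher in the arch and 3.81% in the thoracic segment. Of 8 macrophage markers, 2 were higher in the arch, Cd68 (0.51) and Fcgr1 (0.27, and 0.24 without loess, under the limit), and the others lay between -0.14 and 0.17 apart from Lyz2, which was saturated. Without Lyz2, the median of the 7 others was 0.068 and their summed level 6515 in the arch and 6124 in the thoracic pool. Of 8 dendritic cell markers, 6 were compared, with a median of -0.16 (-0.067 with the median over features, where Itgax turned from -0.17 to 0.54), a summed level of 1207 in the arch and 1361 in the thoracic pool, and Batf3 (-0.36) higher in the thoracic segment; Clec9a and Cd209a were not well above background. Of 6 B cell markers and 8 T cell markers, 0 passed the rule, with medians of -0.13 and -0.0014, and summed levels of 1429 and 1482 for B cells and 1211 in both pools for T cells. Cd28, Lck, Cd4, Cd8a and Cd79a, among others, lay close to the background. Cd28 signals were 86.2 to 107.5, beside negative control means of 77.0 to 97.1. Every summed level also includes the offset of 50 per gene named below, so alike sums do not show alike cell numbers. Of 7 endothelial markers, 5 were higher in the arch, with Kdr at 1.24, a median of 0.56 and a summed level of 1984 in the arch and 1154 in the thoracic pool, in vessels that had been stripped of endothelium. The 8 smooth muscle markers were all well above background, but Acta2 and Tagln were saturated. Their median was 0.13, which was -0.037 without loess and -0.031 on array 2 alone; without the saturated genes it was 0.060, with summed levels of 52055 in the arch and 48303 in the thoracic pool. The part of these cells in the class I and class II values was not tested.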

How the data were processed

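RNA of 2 aortic segments, 1 pool each, was measured on 2 dye-swapped Agilent arrays. The deposited scanner tables give intensity per spot (mean signal and local background median for each dye), from Feature Extraction, version 8.1.1.1 per the file headers and 9.1.1.1 per the submitters' processing notes. The deposited log ratio, log10 of red over green after Agilent's own background and dye correction per the file headers, served as an alternative. The series' deposited value table, also log10 ratios, correlated at 1.0 with the log ratio of each array turned to arch over thoracic, with column medians of 0.0, which settles its scale and direction.

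With limma 3.58.1 in R 4.3.3, mean signals were corrected by normexp (offset 50) and loess (control spots at weight 0). Control spots and outlier spots (8 and 5) were left out, spots of 1 feature averaged, array 1 turned, and both arrays averaged on the log2 scale. The offset pulls ratios of dim features towards 0. The brightest feature well above background stood for its gene. Both arrays count as 1 replicate, and 2 arrays limit the precision. The steps were tested on simulated arrays.

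Gene names came from the files and, for non-members, from RefSeq by accession (21706 spots), current symbol (5476) or synonym (4672); 9680 kept the file's name. The sources used here do not give the genome build of the array annotation. Members, lists, motifs and size rules were chosen with earlier results of these data known. Every compared member could be named, with values per array for the largest and for the classical chains and processing genes, and up to 6 genes per direction of the other lists. A gene that this rule selects is not reported here. The alternatives were: offset 0, no background subtraction, no loess, the deposited log ratio, the median over features, other filters on dim, saturated and outlier spots, and each array alone.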

Additional observations from a re-analysis of the deposited data

How the results depend on the processing

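Counts by the 1.2-fold rule and group medians were recomputed under 11 alternatives. The medians of class I presentation, class I heavy chains, class II presentation, peptide supply and all members kept their sign under each of them; those of class Ib (-0.020 with no filter on dim features) and of the smooth muscle markers did not. Without loess, 3 members were higher in the arch and 0 in the thoracic segment, the class I presentation and class I heavy chain counts in the arch were 2 and 2, the class II count in the thoracic segment was 0, and the medians were 0.13 (class I presentation) and 0.155 (class I heavy chains). With no background subtraction, 0 members and 0 class II genes were higher in the thoracic segment, and 0 peptide supply genes in the arch. With the deposited log ratio, 2 peptide supply genes (Tap1 and Tap2) were higher in the arch, and the 10 members of the main count stayed past the rule. Of all 22812 genes, 1468 passed in the arch and 869 in the thoracic segment in the main setting. These counts were 2581 and 2003 with the deposited log ratio, 1289 and 958 without loess, and 1259 and 745 without background subtraction. On array 1 alone they were 1558 and 1003, and on array 2 alone 1728 and 1137. With no filter on dim features, the medians were 0.040 (class I presentation) and 0.0155 (class I heavy chains), since features at background were added. Leaving out 1 array at a time, the class I heavy chain count in the arch ranged from 5 to 9, the medians from 0.18 to 0.24 (class I presentation), from 0.17 to 0.24 (class I heavy chains) and from 0.037 to 0.088 (all members), the members in the thoracic segment from 0 to 1, the class II genes there from 0 to 1 and the peptide supply genes in the arch from 0 to 1. Of the 10 arch calls, 7 were kept on array 1 alone, where B2m, H2-K1 and Tap2 were lost. A different 7 were kept on array 2 alone, where H2-Bl, H2-Q10 and H2-T23 were lost. Only H2-D1, H2-D4, H2-Q1 and H2-Q7 were kept on each array taken singly. No paired analysis was possible because both arrays carry the same 2 pools and form 1 group. Signal limits C2ta, Tap1, H2-Oa, H2-Ob, H2-DMb2, H2-M1, H2-M10.2 and H2-M10.3, which lay close to the background.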
